A study of Mus musculus with 22 samples.

Results

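Lower glycolysis is the second stage of the breakdown of glucose, from the splitting of fructose bisphosphate to the formation of pyruvate. It was followed here through 10 genes: the aldolases Aldoa and Aldoc, the triose phosphate isomerase Tpi1, the dehydrogenase Gapdh, the kinase Pgk1, the mutase Pgam1, the enolases Eno1, Eno2 and Eno3, and the pyruvate kinase Pkm. Members were taken as every row whose gene symbol equalled 1 of these 10 names. The culture tables held 11 such rows among 34866, because 2 gene models carry the name Aldoa, and the whole-number cartilage table held 10 among 23911. The study measured RNA in 22 mouse samples of primary chondrocytes or cartilage from the knee, at postnatal day 3 to 5. Control mice carried Dnmt1, the maintenance DNA methyltransferase, flanked by loxP sites (labelled Dnmt1 flox, or flox in tissue), and the conditional knockouts (cKO) carried Prrx1-Cre;Dnmt1 flox/flox. Prrx1-Cre acts in limb mesenchyme, so muscle fibres and blood-derived cells of the same tissue are not its main targets. Chondrocyte cultures were sampled untreated at day 0 (3 control, 3 cKO) and after 3 days with bone morphogenetic protein 2 (BMP2; 4 control, 4 cKO), a growth factor that promotes chondrocyte differentiation; the labels give its dose as 100 ng/µl. Cartilage was taken at postnatal day 5 and digested with collagenase (4 control, 4 cKO, each with 2 males and 2 females). Both genotypes at day 3 received BMP2, so no untreated culture of that age was compared. The series title names energy metabolism of growth plate chondrocytes as its subject.

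Aldolase cuts the phosphorylated sugar into a pair of triose phosphates, which Tpi1 interconverts. Gapdh oxidises the triose and Pgk1 then makes the first ATP of the pathway, Pgam1 and enolase rearrange the product, and pyruvate kinase makes the last ATP and pyruvate. Cartilage has no blood vessels, and its chondrocytes are known to rely strongly on glycolysis under low oxygen, in which the hypoxia-inducible factor HIF-1 raises the transcription of many of these enzymes. Several steps have tissue isozymes: Aldoc and Eno2 are known from neurons, Eno3 from skeletal muscle, and Aldoa, Eno1 and Pkm are widely expressed.

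HIF-1 is known to bind the core letters ACGTG and, in a variant form, GCGTG, and Dnmt1 copies methylation at CG dinucleotides, so the 250 bases before each annotated start were read from RefSeq (GRCm38.p6) for all 10 genes, in 16 windows. ACGTG on either strand was found in 5 of the 16 windows (31.2%), belonging to 4 genes, Aldoa, Pgk1, Pgam1 and Pkm. The same letters were in 16.6% of 32851 windows of this length over all genes. The first or the second string was in 12 of the 16 windows (75%) and in 38.6% of all windows. Some windows of the same gene overlap, so the same site can enter these counts more than once. The Aldoa windows at chr7:126799179-126799428 and chr7:126799255-126799504 share their ACGTG site. The Eno1 windows at chr4:150236947-150237196 and chr4:150236974-150237223 share their GCGTG sites. None of the 16 windows held CACGTG, a letter string that would count as ACGTG on both strands. The 4 windows below are shown because their genes moved in different ways between the genotypes: Pgk1 and Aldoa were lower in untreated cKO cultures, Pkm and Eno3 higher. Capitals mark either string, or its reverse complement (beginning CACG) where it lies on the other strand.
Pgk1, chrX:106186850-106187099, plus strand: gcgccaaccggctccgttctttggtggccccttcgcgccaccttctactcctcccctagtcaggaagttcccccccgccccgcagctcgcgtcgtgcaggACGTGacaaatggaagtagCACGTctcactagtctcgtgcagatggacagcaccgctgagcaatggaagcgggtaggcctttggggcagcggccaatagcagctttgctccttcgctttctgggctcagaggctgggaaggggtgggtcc
Aldoa, chr7:126799179-126799428, minus strand: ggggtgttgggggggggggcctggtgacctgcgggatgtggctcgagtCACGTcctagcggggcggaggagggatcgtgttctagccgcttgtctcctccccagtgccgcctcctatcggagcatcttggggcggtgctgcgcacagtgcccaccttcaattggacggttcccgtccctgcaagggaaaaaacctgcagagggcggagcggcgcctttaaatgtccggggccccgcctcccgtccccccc
Pkm, chr9:59656977-59657226, plus strand: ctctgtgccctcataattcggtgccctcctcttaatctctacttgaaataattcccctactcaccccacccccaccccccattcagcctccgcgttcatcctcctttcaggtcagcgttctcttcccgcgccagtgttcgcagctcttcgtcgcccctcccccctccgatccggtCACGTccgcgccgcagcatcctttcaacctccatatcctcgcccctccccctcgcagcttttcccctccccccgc
Eno3, chr11:70656926-70657175, plus strand: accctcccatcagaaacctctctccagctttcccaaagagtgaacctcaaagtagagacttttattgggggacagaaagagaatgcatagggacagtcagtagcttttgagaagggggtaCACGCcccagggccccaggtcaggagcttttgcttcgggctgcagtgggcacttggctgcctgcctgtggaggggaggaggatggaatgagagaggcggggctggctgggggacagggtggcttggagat
The Pgk1 window held ACGTG 2 times, the Aldoa and Pkm windows 1 time each, and the Eno3 window held GCGTG 1 time. Their CG dinucleotides numbered 17 in Pgk1, 19 in Aldoa, 18 in Pkm and 3 in Eno3, where the median over all windows was 6. A second Pkm window, at chr9:59656326-59656575, held neither letter string and 21 CG dinucleotides. A further Aldoa window, at chr7:126800448-126800697, held neither letter string and 0 CG dinucleotides. Such matches describe letters and are not evidence of binding, and methylation itself was not measured in these files.

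Depth differed between the experiments. A day 0 library held between 41749327 and 51741478 counts, a day 3 library between 14434197 and 18918714, and a cartilage library between 1100198 and 1888896 in the whole-number table; counting error is smallest at day 0. Dnmt1 itself, the deleted gene, was lower in every cKO library than in any control library of the same source: 26.8 to 32.8 against 153.1 to 165.6 CPM (counts scaled to library size) at day 0, 10.9 to 35.6 against 63.3 to 81.5 at day 3, and 11.8 to 14.3 against 34.5 to 48.6 in cartilage by whole-number counts. The estimated cartilage counts gave a smaller Dnmt1 difference, 26.5 to 33.4 against 44.1 to 62.5 CPM. Of the chondrocyte markers, Col2a1, Acan, Sox9, Matn1, Col9a1 and Comp were all detected in each group, with a summed level of 124190 to 131460 CPM in control and 46715 to 56744 CPM in cKO cultures at day 0, and 80192 to 98566 against 1090 to 15215 CPM at day 3. In cartilage the sum was 57347 to 87043 CPM in control and 25340 to 53783 CPM in cKO samples. Library 4 of the cKO group at day 3 stood apart: it had the lowest chondrocyte sum (1090 CPM) and, at 113.5 CPM, a far lower summed level of 8 skeletal muscle markers than the other 3 cKO libraries (1020 to 1712 CPM). Each genotype result of the 10 genes at day 3 is therefore also given, or described, without it. The day changes are mostly described without it by counts of calls. Labels name biological replicates without saying which animals or litters they came from, so p-values measure the spread between these libraries. All control cartilage libraries came from library pool 1 and all cKO ones from pool 2, so that pool and genotype cannot be told apart there. In whole cultures and tissue, fewer cells of a type and less RNA per cell cannot be told apart either.

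Per kilobase of annotated exon, the 10 genes spanned a wide range in untreated control cultures. Pgk1 was highest, with 339.7 to 379.4 CPM per kb, followed by Eno1 (311.9 to 317.5), Gapdh (284.2 to 304.3), Pkm (212.9 to 223.5), Pgam1 (204.3 to 216.8), Aldoa (185.1 to 197.6) and Tpi1 (136.9 to 138.2). The isozymes lay far below, with Eno3 at 13.5 to 16.5, Eno2 at 1.45 to 1.76 and Aldoc at 0.543 to 0.822 CPM per kb. Of these neighbours in order, Pkm and Pgam1 overlapped in their library values and the others did not. The order was different in untreated cKO cultures, where Pkm was highest (274.0 to 309.8 CPM per kb) and Gapdh second (254.3 to 270.5), ahead of the overlapping Pgk1 (204.2 to 221.2) and Eno1 (203.4 to 217.3). In control cultures at day 3 Eno1 led (209.3 to 284.5 CPM per kb), and Pgam1, Aldoa, Pgk1, Gapdh and Pkm formed a chain of overlapping ranges between 110.9 and 208.9. With BMP2, cKO cultures again had Pkm first, at 289.6 to 298.8 CPM per kb, above Gapdh (222.8 to 282.1) and Aldoa (191.9 to 290.4). Eno3, Eno2 and Aldoc kept ranks 8, 9 and 10 by mean in all 4 culture groups. In control cultures at day 3 Eno2 (1.37 to 1.57) and Aldoc (0.630 to 1.78) overlapped.

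**Figure D1:**
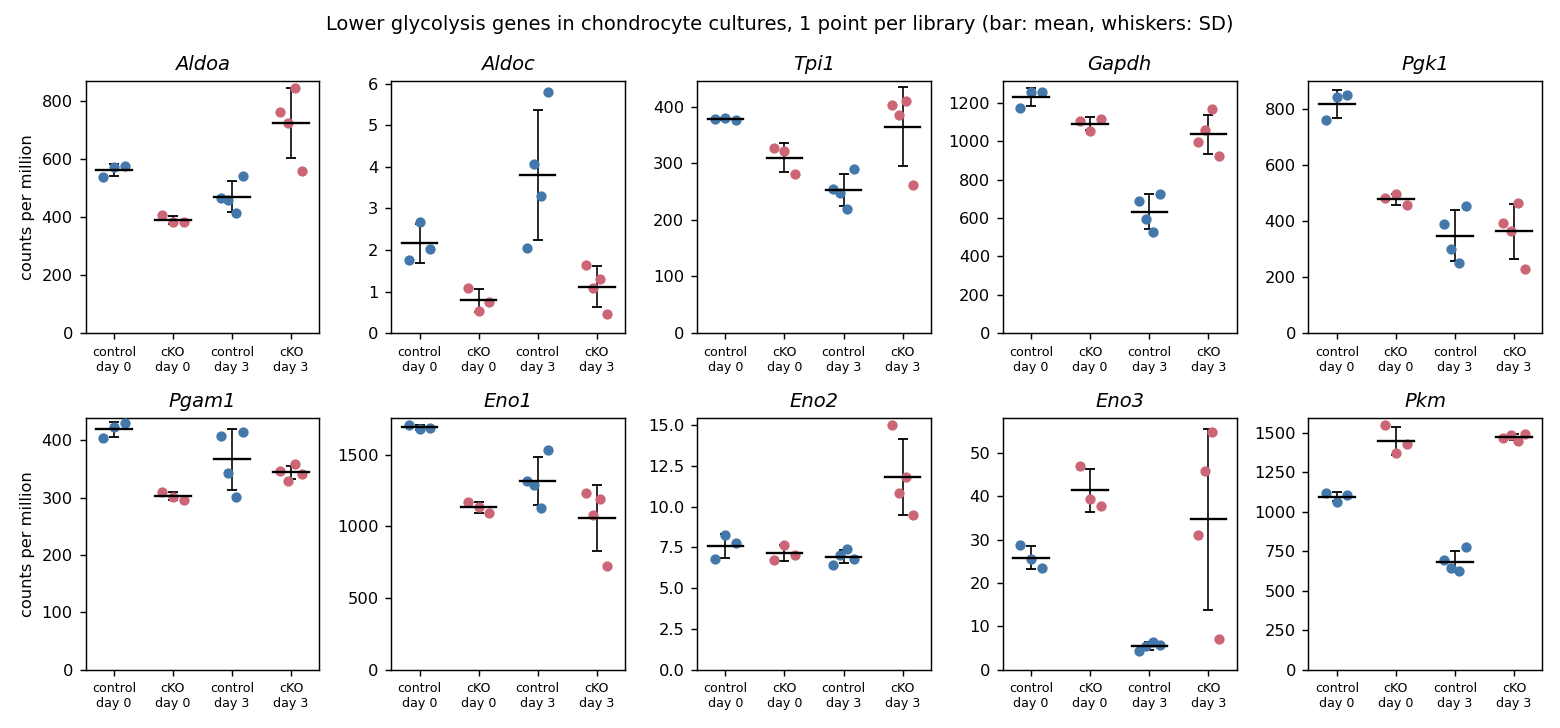
Level of each of the 10 genes in chondrocyte cultures. The vertical axes show CPM from 0, each point is 1 library (blue control, red cKO), the bar is the mean and the whiskers are the SD. Pgk1 in untreated cultures lay between 762.4 and 851.3 CPM in control and between 458.3 and 496.3 CPM in cKO libraries, and Pkm was higher in cKO than in control libraries at both days.

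In untreated cultures most of the lower pathway was expressed at a lower level without Dnmt1, and its last enzyme at a higher one. Of the 10 genes, all of which were tested, 7 were called lower in cKO than in control cultures: Pgk1, Eno1, Aldoa, Pgam1, Tpi1, Gapdh and Aldoc. Pkm and Eno3 were called higher, and Eno2 was not called. Over all 15530 genes tested, 31.6% were called lower and 33% higher at an adjusted p under 0.05, so a call was common in this comparison. The median log2 fold change was -0.38 over the 10 genes and 0.01 over all genes.

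At the aldolase step, Aldoa was 539, 571 and 575 CPM in the 3 control libraries and 406, 383 and 381 CPM in the 3 cKO libraries. The groups did not overlap, and the fitted cKO level was 0.693 times the control level (log2 fold change -0.53 ± 0.04 (SE), adjusted p = 5.03e-06). Aldoc, the minor isozyme, was 1.77, 2.68 and 2.03 CPM in control and 1.08, 0.528 and 0.757 CPM in cKO libraries (log2 fold change -1.46 ± 0.27 (SE), adjusted p = 0.00104), again without overlap. The second gene model named Aldoa, ENSMUSG00000114515 on the minus strand of chromosome 7 at 126800790 to 126809108, lies directly upstream of Aldoa (126795234 to 126800751). Its counts were small, at 227 to 264 per control library and 40 to 52 per cKO library, and it was called lower (log2 fold change -2.33 ± 0.14 (SE), adjusted p = 1.04e-06). Tpi1, which keeps the triose pool in balance, was 378, 380.5 and 377 CPM in control and 327, 322 and 281 CPM in cKO libraries. The control libraries were close together and all cKO libraries lay below them (log2 fold change -0.29 ± 0.05 (SE), adjusted p = 0.00133).

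Gapdh, often used as a reference gene, showed the smallest called difference of the 10. Its level was 1174, 1258 and 1255 CPM in control and 1108, 1051 and 1118 CPM in cKO libraries (log2 fold change -0.17 ± 0.05 (SE), adjusted p = 0.0105). Every cKO library was below every control library, by a margin smaller than that of Pgk1. Pgk1, on the X chromosome (106187100 to 106203699), was 762, 846 and 851 CPM in control and 483, 496 and 458 CPM in cKO libraries. The cKO level was 0.583 times the control level (log2 fold change -0.78 ± 0.05 (SE), adjusted p = 2.14e-06), the largest fall among the 7 abundant genes. Pgam1, which moves the phosphate before the enolase step, was 405, 424 and 429.7 CPM in control and 310.0, 301 and 296 CPM in cKO libraries (log2 fold change -0.48 ± 0.04 (SE), adjusted p = 3.89e-06), with no overlap.

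Among the enolases the isozymes went different ways. Eno1, the widely expressed enolase, was 1708, 1678 and 1683 CPM in control and 1169, 1137 and 1094 CPM in cKO libraries (log2 fold change -0.58 ± 0.05 (SE), adjusted p = 4.99e-06), and all cKO libraries were lower. Eno3, the muscle enolase, was 28.8, 25.5 and 23.4 CPM in control and 47.1, 39.5 and 37.7 CPM in cKO libraries (log2 fold change 0.67 ± 0.10 (SE), adjusted p = 0.000233), and all cKO libraries were higher. Eno2, the neuronal enolase, was 6.82, 8.26 and 7.74 CPM in control and 6.75, 7.67 and 7.04 CPM in cKO libraries, with overlap (log2 fold change -0.09 ± 0.10 (SE), adjusted p = 0.433). Beside Eno3, the summed level of the 8 muscle markers was 11.1 to 12.6 CPM in control and 53.5 to 55.8 CPM in cKO libraries, with Myod1 at 0 in all control and Myl1 at 0 in all cKO libraries. Myog had at most 3 counts in every library, and Myl1 in every control library. Sums of adipocyte (2.37 to 4.49 against 0.901 to 1.14 CPM), endothelial (3.27 to 3.84 against 1.13 to 1.38) and leukocyte markers (2.66 to 3.26 against 1.25 to 1.39) were also higher in every cKO library. So was the neuron and glia sum (7.35 to 8.41 against 6.05 to 6.98 CPM). The osteoclast sum and the fibroblast and tendon sum were lower in every cKO library. The part of these cell types in the results was not tested. Pkm was 1118, 1065 and 1106 CPM in control and 1549, 1370.3 and 1427 CPM in cKO libraries. Its cKO level was 1.32 times the control level, with no overlap (log2 fold change 0.40 ± 0.05 (SE), adjusted p = 0.000175). With the spread estimated over all 14 culture libraries instead, Tpi1, Gapdh and Eno3 were no longer called (adjusted p = 0.134, 0.27 and 0.251), and the other 6 calls held.

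**Figure D2:**
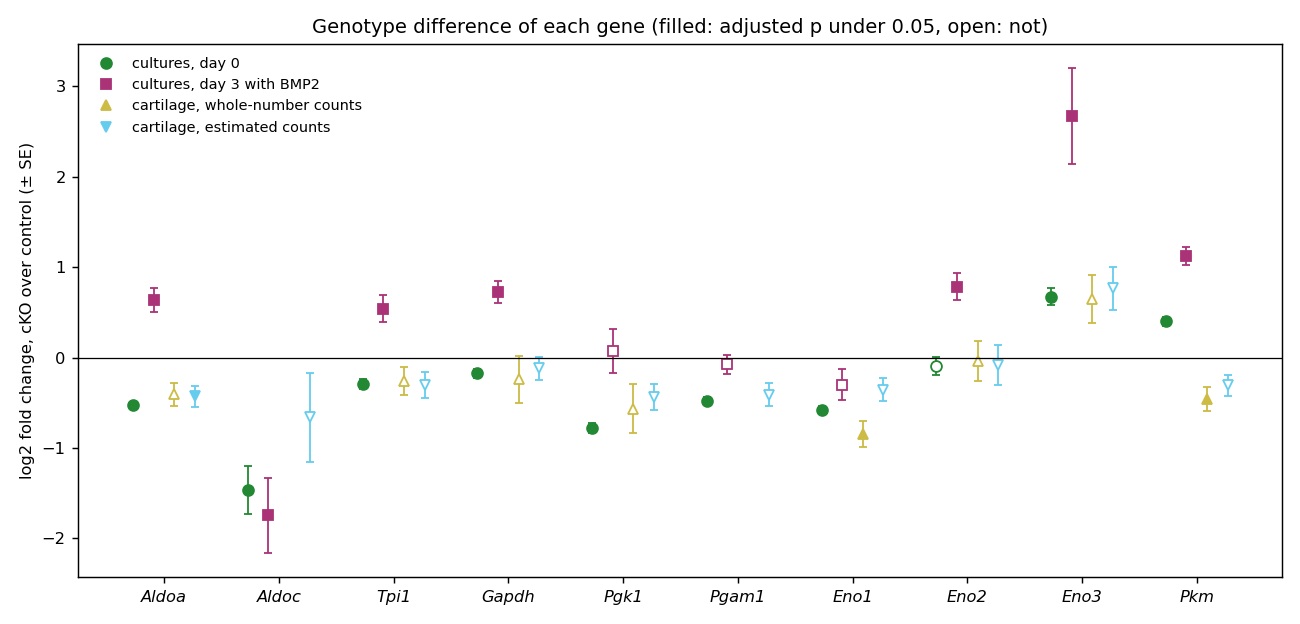
Log2 fold change of cKO over control for each gene, with SE as whiskers, in untreated cultures, BMP2-treated cultures and cartilage (both count tables). Filled symbols passed an adjusted p of 0.05 and open ones did not; Aldoa, Tpi1 and Gapdh lie below 0 at day 0 and above 0 at day 3.

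After 3 days of BMP2 the genotype difference had the opposite sign for Aldoa, Tpi1 and Gapdh. Of the 10 genes, 6 were called higher in cKO than in control cultures: Pkm, Gapdh, Aldoa, Tpi1, Eno2 and Eno3. Aldoc was called lower, and Pgk1, Pgam1 and Eno1 were not called. Over all 13924 genes tested, 25.5% were called higher and 22.6% lower. The median log2 fold change was 0.59 over the 10 genes and 0.01 over all genes. Leaving out library 4 of the cKO group gave the same 7 calls.

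Aldoa at day 3 was 467, 459, 413 and 541 CPM in the 4 control libraries and 763, 726, 845 and 559 CPM in the 4 cKO libraries. All cKO libraries were higher, the fourth by the least, and the cKO level was 1.55 times the control level (log2 fold change 0.64 ± 0.14 (SE), adjusted p = 0.00508). Aldoc was 2.06, 4.07, 3.303 and 5.803 CPM in control and 1.63, 1.09, 1.304 and 0.461 CPM in cKO libraries (log2 fold change -1.74 ± 0.41 (SE), adjusted p = 0.00832), lower in every cKO library as at day 0. The upstream gene model named Aldoa had 33 to 42 counts per control and 3 to 11 per cKO library (log2 fold change -2.47 ± 0.33 (SE), adjusted p = 0.000482), the opposite direction to Aldoa itself. Tpi1 was 255, 247, 219.6 and 289.8 CPM in control and 402, 385, 411 and 262 CPM in cKO libraries (log2 fold change 0.54 ± 0.15 (SE), adjusted p = 0.015). The fourth cKO library lay inside the control range and the other 3 above it; without that library the log2 fold change was 0.66 (adjusted p = 0.000263).

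Gapdh reached 687, 593, 525 and 726 CPM in control and 998, 1059, 1166 and 921 CPM in cKO libraries. Every cKO library was above every control library, and the cKO level was 1.65 times the control level (log2 fold change 0.73 ± 0.13 (SE), adjusted p = 0.00176). Pgk1 was 391, 301, 249 and 455 CPM in control and 392, 366, 466 and 229 CPM in cKO libraries. These groups overlapped widely, the fourth cKO library being lowest of all 8 (log2 fold change 0.07 ± 0.24 (SE), adjusted p = 0.826); leaving out single libraries gave log2 fold changes from -0.07 to 0.23. Pgam1 was 408, 344, 302 and 414 CPM in control and 346, 329.9, 359 and 342 CPM in cKO libraries, also with overlap (log2 fold change -0.08 ± 0.11 (SE), adjusted p = 0.597).

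Eno1 was 1314, 1286, 1126 and 1530.3 CPM in control and 1234, 1082, 1189 and 725 CPM in cKO libraries at day 3. The ranges overlapped, and the fourth cKO library was far below the rest (log2 fold change -0.30 ± 0.17 (SE), adjusted p = 0.182). Eno2 was 6.44, 7.06, 7.39 and 6.79 CPM in control and 15.02, 10.9, 11.8 and 9.51 CPM in cKO libraries (log2 fold change 0.78 ± 0.15 (SE), adjusted p = 0.00277), higher in all 4 cKO libraries. Eno3 was 4.39, 5.38, 6.37 and 5.74 CPM in control and 31.1, 45.9, 54.8 and 7.09 CPM in cKO libraries (log2 fold change 2.67 ± 0.53 (SE), adjusted p = 0.00346). Its level in the fourth cKO library was close to the control range and 3 libraries were several times higher; without that library the log2 fold change was 3.00 (adjusted p = 2.51e-06). The 8 muscle markers moved in the same libraries as Eno3: their sum was 1.14 to 1.85 CPM in control, where 5 of the 8 had at most 3 counts in every library, 1020, 1381 and 1712 CPM in cKO libraries 1 to 3 and 113.5 CPM in cKO library 4. Their part in the Eno3 result was not tested. The mutase isozyme of muscle, Pgam2, was also called higher at day 3 (log2 fold change 5.08 ± 0.45 (SE), adjusted p = 6.02e-05). Pkm was 696, 644, 623 and 776 CPM in control and 1471, 1484, 1448 and 1494 CPM in cKO libraries. The 4 cKO libraries lay close together, far above the controls, and included library 4 (log2 fold change 1.12 ± 0.10 (SE), adjusted p = 5.6e-05). That is 2.18 times the control level.

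Between day 0 and day 3, 5 members fell in control cultures, and in cKO cultures 2 members rose. Culture age, BMP2 and the count table changed together, so this change has no single source. In control cultures 5 of the 10 genes were called lower at day 3, Pgk1, Gapdh, Pkm, Tpi1 and Eno3, and 0 higher (8476 of 14909 genes were called, 28.8% lower and 28.1% higher; 6 of the 10 had an unadjusted p under 0.05, and DESeq2 called 6 lower and 0 higher). Without control library 4 of day 3, 8 were called lower, and without cKO library 4, whose values enter the shared estimate of spread, 7 lower and 1 higher. In cKO cultures 0 of the 10 were called lower and 2, Aldoa and Eno2, higher, against 29.8% of all genes lower and 32.4% higher (2 of the 10 had an unadjusted p under 0.05; DESeq2 called 0 lower and 2 higher). The test of the difference itself, the genotype by day interaction, called 6 of the 10 genes, all with a higher change in cKO: Aldoa, Tpi1, Gapdh, Eno2, Eno3 and Pkm. Without cKO library 4 it called 9, the added genes being Pgk1, Pgam1 and Eno1. Over all genes 9.94% were called in that direction and 6.89% in the other. The median interaction was 0.83 on the log2 scale for the 10 genes and 0.02 over all genes. The genotype differences at day 0 and day 3 enter this interaction, so it is no separate evidence beside them.

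Group means show the course of each gene. Mean Aldoa was 561.9 ± 20.1 CPM (SD, n = 3) at day 0 and 470.0 ± 53.3 (SD, n = 4) at day 3 in control cultures (log2 fold change -0.26 ± 0.12 (SE), adjusted p = 0.0867). In cKO cultures it was 390.1 ± 13.9 and 723.2 ± 120.6 CPM (log2 fold change 0.89 ± 0.12 (SE), adjusted p = 4.79e-05), so the genotypes exchanged their order, with an interaction of 1.15 ± 0.17 (SE; adjusted p = 0.00101). Tpi1 fell in control cultures from 378.3 ± 1.96 to 252.9 ± 28.9 CPM (log2 fold change -0.58 ± 0.14 (SE), adjusted p = 0.00268). In cKO cultures it was 310.0 ± 25.4 and 364.9 ± 69.6 CPM, not called with all libraries (adjusted p = 0.155) but called without cKO library 4 (log2 fold change 0.37, adjusted p = 0.00175). Its interaction was 0.82 ± 0.19 (SE; adjusted p = 0.0132). Aldoc, near 1 to 4 CPM throughout, was not called in either genotype with all libraries (adjusted p = 0.0857 and 0.307). Of the 14 fits that each left out a library, 3 called the control change of Aldoa and 2 that of Aldoc.

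Gapdh fell in control cultures from 1229 ± 47.4 to 632.8 ± 91.2 CPM (log2 fold change -0.96 ± 0.11 (SE), adjusted p = 1.07e-05). In cKO cultures it was 1093 ± 36.1 and 1036 ± 104 CPM (adjusted p = 0.567), with an interaction of 0.88 ± 0.16 (SE; adjusted p = 0.0027). Pgk1 fell in control cultures from 819.8 ± 49.8 to 348.9 ± 91.9 CPM, to 0.425 times its former level (log2 fold change -1.23 ± 0.22 (SE), adjusted p = 0.000344). In cKO cultures it was 479.1 ± 19.3 and 363.4 ± 99.3 CPM (adjusted p = 0.128). Its interaction, 0.83 ± 0.31 (SE), missed the threshold with all libraries (adjusted p = 0.0858) and passed it without cKO library 4 (1.003, adjusted p = 0.00557) or without control library 4 at day 3 (0.99, adjusted p = 0.0458). Pgam1 was not called in either genotype with all libraries (adjusted p = 0.0942 and 0.101). Of the 14 fits that each left out a library, 2 called its control change and 1 its cKO change.

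Eno1 went from 1690 ± 16.2 to 1314 ± 166.3 CPM in control cultures (log2 fold change -0.36 ± 0.15 (SE), adjusted p = 0.0591) and from 1133 ± 37.5 to 1058 ± 230.4 CPM in cKO cultures (adjusted p = 0.594). Neither change was called with all libraries, but 4 of the 14 fits that each left out a library called the control change. Eno2 rose in cKO cultures, from 7.16 ± 0.470 to 11.8 ± 2.34 CPM (log2 fold change 0.72 ± 0.14 (SE), adjusted p = 0.00054), and was 7.61 ± 0.731 and 6.92 ± 0.4002 CPM in control cultures. The Eno2 interaction was 0.86 ± 0.19 (SE; adjusted p = 0.0103). Eno3 fell in control cultures from 25.9 ± 2.70 to 5.47 ± 0.828 CPM (log2 fold change -2.24 ± 0.46 (SE), adjusted p = 0.00108) and was 41.4 ± 4.97 and 34.7 ± 20.9 CPM in cKO cultures, where library 4 was lowest at day 3 (7.09 CPM). Its interaction, 1.99 ± 0.63 (SE), was just past the threshold (adjusted p = 0.0477): leaving out any of the other 13 libraries gave adjusted p-values from 0.0592 to 0.107, and leaving out cKO library 4 gave 1.82e-05. Pkm fell in control cultures from 1096 ± 27.9 to 684.8 ± 68.1 CPM (log2 fold change -0.68 ± 0.08 (SE), adjusted p = 1.59e-05) and was not called in cKO cultures, at 1449 ± 91.5 and 1474 ± 19.99 CPM (log2 fold change 0.03 ± 0.08 (SE), adjusted p = 0.806). Its interaction was 0.70 ± 0.12 (SE; adjusted p = 0.00173).

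**Figure D3:**
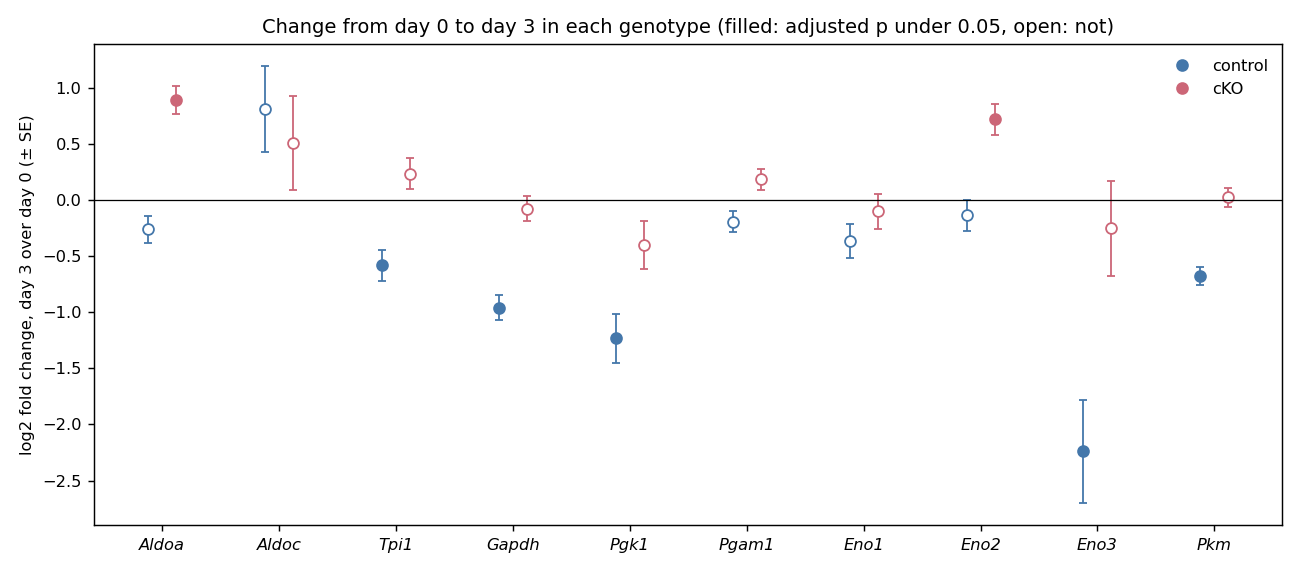
Log2 fold change from day 0 to day 3 for each gene in control (blue) and cKO (red) cultures, with SE as whiskers; filled symbols passed an adjusted p of 0.05. Gapdh fell by 0.96 on the log2 scale in control cultures, where the cKO value was -0.08.

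Ratios within a library do not depend on scaling between libraries and are given as a description. Per exon length, the Pkm to Pgk1 ratio was 0.658, 0.565 and 0.583 in untreated control libraries and 1.44, 1.24 and 1.397 in untreated cKO libraries. Which of these genes is the higher depends on the length used: without division by annotated exon length (5001 bases for Pkm, 2244 for Pgk1) untreated control libraries had CPM ratios of 1.26 to 1.47 and untreated cKO libraries 2.76 to 3.21, all above 1. The separation of the groups does not depend on that length. At day 3 the ratio was 0.799, 0.962, 1.12 and 0.765 in control and 1.68, 1.82, 1.39 and 2.93 in cKO libraries, again without overlap. Eno3 made up 4.93, 4.46 and 4.103% of the enolase level per exon length in untreated control libraries and 11.01, 9.63 and 9.58% in untreated cKO libraries. With BMP2 its share was 1.02, 1.27, 1.71 and 1.14% in control and 7.14, 11.5, 12.4 and 2.89% in cKO libraries. All cKO shares were above all control shares of the same day, library 4 included. Of the enolase CPM without division by length, Eno3 made up 1.36 to 1.65% in control and 3.31 to 3.85% in cKO libraries at day 0, and 0.331 to 0.558% and 0.956 to 4.37% at day 3. Eno1 provided the rest of the enolase pool, between 86.7 and 98.4% in every culture library, and Eno2 at most 1.43%. The share of Aldoc in the aldolases was at most 0.947% in any culture library.

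**Figure D4:**
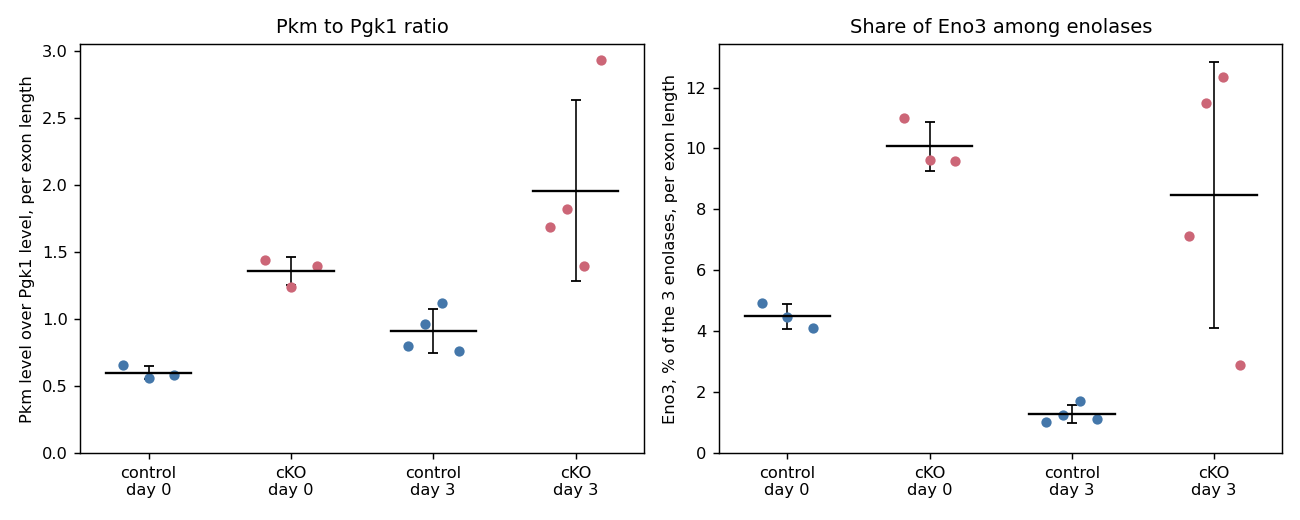
Ratio of Pkm to Pgk1 (left) and share of Eno3 among the 3 enolases in % (right), both per exon length, in the culture libraries. Points are libraries (blue control, red cKO), bars are means and whiskers SD. The Pkm to Pgk1 ratio lay between 0.565 and 0.658 in untreated control and between 1.24 and 1.44 in untreated cKO libraries.

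In cartilage fewer members were called than in cultures, at a lower depth, and the 2 count tables called different genes. In the whole-number table, Eno1 and Pkm were called lower in cKO tissue, 0 genes were called higher, 6 were not called, and Aldoc and Pgam1 had too few counts to be tested. Over its 8793 tested genes 3.04% were called lower and 3.15% higher; 4 of the 8 tested members had an unadjusted p under 0.05, and DESeq2 called 1 of the 8. In the estimated counts all 10 genes were tested, Aldoa was called lower and 0 higher, with 3.18% of 10872 genes called lower and 3.56% higher and 6 of the 10 at an unadjusted p under 0.05. The calls of Pkm and Aldoa rested on every library or nearly so: Pkm was lost without any of the 8 libraries (adjusted p from 0.053 to 0.153), and Aldoa without 7 of them. Eno1 in the whole-number table was called in all 8 of those fits.

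The 2 cartilage tables gave very different counts for 4 of the 10 genes, and the levels of these genes in this tissue are uncertain. Gapdh had 10 to 40 counts per library in the whole-number table and 1442 to 3216 in the estimated one, Pgk1 8 to 22 and 464 to 1254, Pgam1 1 to 7 and 378 to 917, and Eno1 63 to 244 and 895 to 2096. Over all 8 libraries Pgam1 had 28 against 4547 counts and Pkm 1978 against 6813. By contrast, Aldoa (239 to 705 against 331 to 977), Tpi1 (184 to 497 against 345 to 938), Eno2 and Eno3 differed less. A search of the GENCODE M21 transcripts (at least 90% identity over at least 100 bases) found 185 other genes like Gapdh, 180 of them annotated as pseudogenes, 9 like Eno1, 9 like Pkm, 5 like Aldoa, 4 like Pgk1, 3 like Pgam1 and 3 like Tpi1, and 0 like Aldoc or Eno3. Gapdh itself held 35.5% of the counts over Gapdh and its copies in the whole-number table and 96.2% in the estimated one. For Pgk1 and Pgam1 the whole-number table listed 0 of the 4 and 3 copies, so their counts there are not known, and the number of copies did not order the genes by how far the tables differed. At day 0 the copies of Gapdh took a visible part, Gapdh holding 83.7% with Gm10359 as the largest copy, while Pkm, Aldoa and Eno1 each held over 99% and Pgk1 95.5%, with Gm5537 as its largest copy. Summing each gene with its copies gave 10 calls at day 0, Eno2 being the added one through a short match to Gemin2, which is no enolase.

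**Figure D5:**
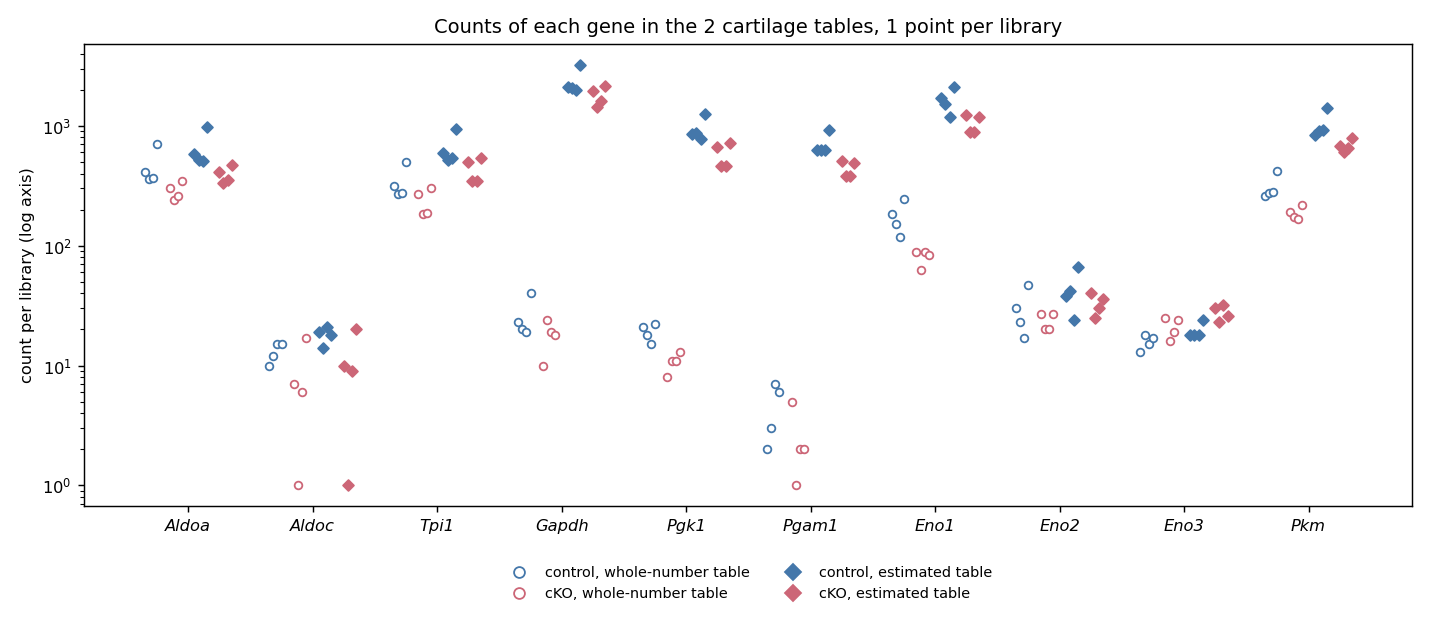
Counts per library (log axis) of each gene in the 2 cartilage tables. Open circles are whole-number counts and filled diamonds estimated counts, blue control and red cKO. Gapdh, Pgk1, Pgam1 and Eno1 differ between the tables by far more than the genotypes do.

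Aldoa was 309, 306, 334 and 363 CPM in control and 253, 209, 233 and 297 CPM in cKO cartilage in the whole-number table (log2 fold change -0.40 ± 0.13 (SE), adjusted p = 0.0778). The groups did not overlap, and the estimated counts gave almost the same difference, there called (log2 fold change -0.43 ± 0.12 (SE), adjusted p = 0.047). Aldoc had 1 to 17 cKO and 10 to 15 control counts per library and was not tested in the whole-number table; in the estimated one it was not called (log2 fold change -0.66 ± 0.49 (SE), adjusted p = 0.467). The upstream gene model named Aldoa had 0 counts in every cartilage library of the estimated table. Tpi1 was 236, 230.4, 251 and 256 CPM in control and 226, 161, 166 and 262 CPM in cKO cartilage (log2 fold change -0.26 ± 0.15 (SE), adjusted p = 0.351), with overlap and with a similar value in the estimated counts (-0.30 ± 0.15).

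For Gapdh the estimated counts, which were far higher than the whole-number ones, gave 1018, 1097, 1147 and 1049.7 CPM in control and 1067, 814, 907 and 1194 CPM in cKO cartilage (log2 fold change -0.12 ± 0.13 (SE), adjusted p = 0.643). The ranges overlapped. The whole-number table gave -0.24 ± 0.26 (SE; adjusted p = 0.634). Pgk1 was 412, 465, 453 and 409 CPM in control and 359, 262, 264 and 400.5 CPM in cKO cartilage by estimated counts (log2 fold change -0.44 ± 0.15 (SE), adjusted p = 0.0988), lower in all 4 cKO libraries but not called. By whole-number counts it was -0.57 ± 0.27 (adjusted p = 0.237). Pgam1 was 305, 332, 361 and 299 CPM in control and 274, 217, 214 and 271 CPM in cKO cartilage by estimated counts (log2 fold change -0.41 ± 0.13 (SE), adjusted p = 0.0741), also lower in all cKO libraries and not called.

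Eno1 was 137, 131, 108 and 126 CPM in control and 74.7, 55.1, 78.5 and 71.5 CPM in cKO cartilage by whole-number counts, 0.558 times the control level (log2 fold change -0.84 ± 0.14 (SE), adjusted p = 0.00174). No cKO library reached a control library. By estimated counts it was 827, 800.3, 689 and 684 CPM in control and 667, 505, 507 and 658 CPM in cKO cartilage, still without overlap but with a smaller difference that was not called (log2 fold change -0.36 ± 0.13 (SE), adjusted p = 0.122). Eno3 was 9.76, 15.4, 13.8 and 8.75 CPM in control and 20.99, 13.99, 16.9 and 20.7 CPM in cKO cartilage (log2 fold change 0.65 ± 0.27 (SE), adjusted p = 0.169), and 8.76, 9.57, 10.4 and 7.83 against 16.3, 12.98, 18.1 and 14.4 CPM by estimated counts (log2 fold change 0.77 ± 0.24 (SE), adjusted p = 0.0753). The estimated values did not overlap and the whole-number values did; neither test was called, at 13 to 32 counts per library. The summed muscle markers were 6.83 to 10.1 CPM in control and 44.6 to 78.9 CPM in cKO cartilage in the whole-number table. In all control libraries Myh3, Myh8, Myod1 and Ckm were at 0, and Myl1, Acta1 and Myog had at most 3 counts. In all cKO libraries Myog, Myod1 and Ckm were at 0, and Myh3 and Myh8 had at most 3 counts. Only 1 of the 8 markers had enough counts to be tested, and it was called higher. The part of these markers in the Eno3 values was not tested. Eno2 was not called in either table (-0.04 ± 0.22 and -0.08 ± 0.22). Pkm was 194, 233, 255 and 215 CPM in control and 159.5, 153, 149.9 and 188 CPM in cKO cartilage by whole-number counts (log2 fold change -0.46 ± 0.13 (SE), adjusted p = 0.0492). All cKO libraries were lower, a direction opposite to that in cultures, and the estimated counts gave -0.31 ± 0.11 (adjusted p = 0.132).

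Markers of other cell types also differed in cartilage, and their part in the values above was not tested. All 4 tested red blood cell genes and all 3 tested osteoclast genes were called lower in cKO tissue by edgeR, where DESeq2 called 0 red blood cell genes and the 3 osteoclast genes. The summed red blood cell level was 165.9 to 915.9 CPM in control and 13.4 to 388.9 CPM in cKO libraries, and the osteoclast sum was 123.8 to 452.0 against 57.9 to 118.6 CPM. Of the chondrocyte markers 1 of 6, Matn1, was called lower (log2 fold change -0.93 ± 0.23 (SE), adjusted p = 0.0279) in the whole-number table, where 4 had an unadjusted p under 0.05 and DESeq2 called 2; in the estimated counts 2 were called lower, Matn1 and Col2a1. The genotype difference was also compared between the sexes, with 2 libraries a group: 0 of 8 tested members were called by edgeR or DESeq2 and 0 had an unadjusted p under 0.05, where 1 of 8793 genes, 0.0114%, was called. With so few libraries, a difference between the sexes could not be resolved rather than being absent. Within males Eno1 was -1.04 ± 0.20 (SE; adjusted p = 0.00924), and within females -0.65 ± 0.20 (SE; adjusted p = 0.104).

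Genes on either side of the lower pathway were read from gene lists. Of 12 genes of glucose entry and the upper steps, 6 were called lower and 3 higher in untreated cKO cultures, where 31.6% of all genes were lower and 33% higher. The lower ones were led by the hexokinase Hk2 (log2 fold change -1.08 ± 0.04 (SE), adjusted p = 7e-08), the phosphofructokinase Pfkl (log2 fold change -0.97 ± 0.09 (SE), adjusted p = 1.05e-05) and the glucose transporter Slc2a1 (log2 fold change -0.85 ± 0.03 (SE), adjusted p = 1.05e-07). The higher ones were Pfkp (log2 fold change 0.74 ± 0.04 (SE), adjusted p = 5.08e-07), Slc2a3 (log2 fold change 0.68 ± 0.12 (SE), adjusted p = 0.00102) and the isomerase Gpi1 (log2 fold change 0.31 ± 0.03 (SE), adjusted p = 2.02e-05). All 6 genes of the fate of pyruvate were called lower at day 0, including the dehydrogenase kinase Pdk1 (log2 fold change -1.12 ± 0.10 (SE), adjusted p = 1e-05), the lactate dehydrogenase Ldhb (log2 fold change -1.05 ± 0.08 (SE), adjusted p = 4.35e-06) and the monocarboxylate transporter Slc16a1 (log2 fold change -0.85 ± 0.05 (SE), adjusted p = 1.12e-06).

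At day 3, edgeR called 0 of the 12 upper genes lower (1 had an unadjusted p under 0.05, and DESeq2 called 1) and 3 higher, Pfkp (log2 fold change 0.91 ± 0.12 (SE), adjusted p = 0.000391), the regulatory enzyme Pfkfb3 (log2 fold change 0.68 ± 0.23 (SE), adjusted p = 0.0387) and Gpi1 (log2 fold change 0.61 ± 0.07 (SE), adjusted p = 0.000306). Of the pyruvate genes, Slc16a3, the lactate exporter, was called higher (log2 fold change 2.18 ± 0.31 (SE), adjusted p = 0.0007) and Ldhb and Slc16a1 lower (-0.95 and -0.48). At day 3, 25.5% of all genes were called higher and 22.6% lower. The interaction called 6 of the 12 upper genes and 2 of the 6 pyruvate genes, all higher (8 and 5 without cKO library 4), led by Slc16a3 (2.74 ± 0.41, SE; adjusted p = 0.00103), Pfkfb3 (1.45 ± 0.30), Pfkl (1.33 ± 0.26) and Hk2 (0.96 ± 0.15). Over all genes the interaction called 9.94% higher and 6.89% lower. In cartilage Hk1 (log2 fold change -0.70 ± 0.17 (SE), adjusted p = 0.0221) and Pfkfb3 (log2 fold change -0.55 ± 0.14 (SE), adjusted p = 0.0272) were called lower of 8 tested upper genes in the whole-number table (5 had an unadjusted p under 0.05, and DESeq2 called 0). Of all genes tested there by edgeR, 3.04% were called lower and 3.15% higher. In the estimated counts 4 of 10 were called lower, Hk1, Hk2, Pfkm and Pfkfb3, and 3.18% of all genes. Of the 6 pyruvate genes edgeR and DESeq2 called 0 in the whole-number table, and 3 had an unadjusted p under 0.05; in the estimated counts edgeR called 1 lower, the lactate dehydrogenase Ldha (log2 fold change -0.44 ± 0.11 (SE), adjusted p = 0.0325).

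Of 5 regulators, 2 were called lower and 1 higher at day 0, and 1 lower and 3 higher at day 3. The shares of all genes are given below. Hif1a, the oxygen-regulated subunit of HIF-1, was lower in untreated cKO cultures (log2 fold change -0.68 ± 0.07 (SE), adjusted p = 1.82e-05) and higher at day 3 (log2 fold change 0.45 ± 0.15 (SE), adjusted p = 0.0361), with an interaction of 1.12 ± 0.20 (SE; adjusted p = 0.00326). Tigar (log2 fold change 0.64 ± 0.14 (SE), adjusted p = 0.00632) and Myc (log2 fold change 0.51 ± 0.16 (SE), adjusted p = 0.0315) were, like Hif1a, called higher at day 3. Hif1a and Myc lay near the threshold there. For all genes named outside the 10 members, the alternative fits at day 3 lost 38 calls and kept 228. At day 0 they lost 2 and kept 250. Ppargc1a, a coactivator of mitochondrial genes, was lower on both days (-1.68 ± 0.34 and -3.49 ± 0.28). Epas1, the subunit of HIF-2, was the regulator called lower in cartilage (log2 fold change -1.20 ± 0.23 (SE), adjusted p = 0.00452), and was called higher in untreated cKO cultures (log2 fold change 0.30 ± 0.08 (SE), adjusted p = 0.00705). The 10 HIF-responsive genes outside glycolysis went both ways: 5 were called lower and 2 higher at day 0, and 2 lower and 4 higher at day 3 (2 and 6 without cKO library 4), beside 31.6% and 33% of all genes at day 0 and 22.6% and 25.5% at day 3. At day 0 Bnip3, a mitophagy receptor, was lower (log2 fold change -1.49 ± 0.10 (SE), adjusted p = 1.59e-06) and the peptide hormone gene Adm higher (log2 fold change 1.67 ± 0.14 (SE), adjusted p = 6.56e-06). At day 3 the oxygen sensor Egln3 (log2 fold change 3.17 ± 0.28 (SE), adjusted p = 5.6e-05) and Adm (log2 fold change 2.09 ± 0.23 (SE), adjusted p = 0.000186) were higher. In cartilage edgeR called 0 of 8 tested and DESeq2 0 of 10, with 1 at an unadjusted p under 0.05. Of 7 further isozymes of the lower steps, Gapdhs, the sperm form of Gapdh, was called lower in cultures on both days (-0.80 ± 0.15 and -1.19 ± 0.24), and Bpgm, which makes bisphosphoglycerate, was called higher at day 0 (log2 fold change 0.52 ± 0.10 (SE), adjusted p = 0.00142).

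Finally, the level pattern of each member over the 14 culture libraries was compared with 10135 genes by the root mean square (RMS) difference of centred log2 CPM. No member was nearest to another member. The closest pairs were Eno1 with Bola1 (0.07), Tpi1 with Fam162a (0.08) and Pgam1 with Nbas (0.09). Pgk1 was nearest to Tmem154 (0.15), the glycogen synthase Gys1 (0.17) and Tubb2a (0.18), where its own RMS spread was 0.57. Pkm was nearest to Kpna3 (0.13), Zfp36 (0.14) and Ppp1r14b (0.14), with a spread of 0.48. The nearest gene was Jak3 for Aldoa (0.18), Tpcn2 for Eno2 (0.13), Enox1 for Aldoc (0.30) and Card10 for Eno3 (0.44). Eno3 had the largest spread of the members (1.26), and its nearest gene was also the farthest away. These distances share 14 libraries of 4 groups and describe likeness of level alone.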

How the data were processed

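RNA was measured in 14 culture and 8 cartilage samples, grouped by the labels. For the cultures the deposited tables hold estimated counts of each gene; for cartilage the authors deposited whole-number counts and also estimated counts. Estimated counts were rounded to whole numbers before testing. The build is GRCm38, per the submitters' processing notes. For the cartilage samples these notes name UMI-tools 1.1.1, Trim Galore 0.6.7, HISAT2 2.2.1, featureCounts 2.0.1 and DESeq2 1.34.0, with no role or order; for cultures, aligner and counter are not given in the sources used here. Culture libraries were stranded and made from total RNA, and cartilage libraries were barcoded 3′ libraries (BRB-seq), per the labels' protocols. The whole-number table was the main one for cartilage, with the estimated counts beside it. No per-sample column was left unused (0).

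From these counts, edgeR 4.0.16 in R 4.3.3 fitted quasi-likelihood models with TMM scaling, filterByExpr (minimum 10 counts, sum 15); p-values were adjusted by Benjamini-Hochberg across every gene in a fit, and calls are at an adjusted p under 0.05, two-sided. Day 0, day 3 and cartilage (with sex as a covariate) were fitted separately, and the 14 culture libraries in 4 groups gave the day changes and the interaction. SE is the absolute log2 fold change over the square root of F. Adjusted p-values come from edgeR's test except where DESeq2 (1.42.0, an alternative) is named. Culture CPM share 1 TMM scale. A floor of 3 counts is 0.058 to 0.0719 CPM at day 0, 0.159 to 0.208 at day 3 and 1.59 to 2.73 in cartilage, counting error only. No replicate pair was as alike as sampling noise (chi-square per degree of freedom 4.02 to 149.5). Near-identical copies came from blastn 2.17.0+ on GENCODE M21, starts from RefSeq. The fits were tested on simulated data.

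All 10 members are named, with up to 3 called genes per direction of each list and the nearest gene by level pattern; a nearest gene is not reported here for every member. The members, the lists and the cell type markers were chosen with earlier results of these data known. Alternatives tried were DESeq2, RLE scaling, no filter, a replicate block, summing copies, a joint fit, leaving out ribosomal RNA rows or sex, and leaving out each library; 3 more were added after seeing the data.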

Additional observations from a re-analysis of the deposited data

Results flagged for a closer look

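Of 62 groups of 4 libraries examined, 1 contained a library far from the others by Dixon's criterion (critical value 0.829), fewer than the 1 in 20 that chance gives. Gapdh in the whole-number cartilage table was 17.1 to 17.4 CPM in control libraries 1 to 3 and 20.6 CPM in control library 4, at 19 to 40 counts; in the estimated counts, where Gapdh had 1980 to 3216 counts, library 4 lay inside the range of the others.

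For 6 genes the genotype effect differed between day 0 and day 3 by the interaction test of edgeR. The log2 interaction was 1.15 for Aldoa, 0.82 for Tpi1, 0.88 for Gapdh, 0.86 for Eno2, 1.99 for Eno3 and 0.70 for Pkm, each higher in cKO at day 3. Leaving out each of the 14 libraries kept 5 of these past the threshold in all 14 fits, and Eno3 in 1 of 14.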

How the results depend on the processing

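The count of members called at day 0 (9), at day 3 (7) and in the interaction (6) stayed within 1.5 times under every alternative run: 6 to 10, 6 to 7 and 5 to 9. In cartilage the count went from 2 to 1 with DESeq2, RLE scaling, estimated counts, copies summed in either table, no ribosomal RNA rows, no sex term or any library left out (1 in all 8), where Pkm, at an adjusted p of 0.0492, was no longer called (0.0504 to 0.153), while with no filter on low counts it stayed called (0.0356). In the estimated counts Eno1 lost its call too (adjusted p = 0.122, and 0.077 with copies summed). The 1 call there was Aldoa (adjusted p = 0.047), which was not called in the main fit. The single call in the estimated counts ranged from 0 to 2 on leaving out a library. The control day change had 5 calls and 5 to 8 on leaving out a library (8 without cKO or control library 4 of day 3); the cKO day change had 2 calls, 2 to 3 on leaving out a library, and 1 with copies summed, where Eno2 summed with Gemin2 became -0.12 and lost its call (adjusted p = 0.355). Other values that changed sign were not called: Pgk1 at day 3 on leaving out a library (-0.068 to 0.23), Eno2 in cartilage (-0.15 to 0.078; 0.052 with estimated counts and copies summed; -0.20 to 0.050 in the estimated counts), and the cKO day changes of Eno1 (-0.21 to 0.046), Eno3 (-0.60 to 0.089) and Dnmt1 (-0.40 to 0.084), each positive without cKO library 4. The Pkm day change in cKO cultures ranged from -0.021 to 0.072, and the interaction of the upstream Aldoa model from -0.38 to 0.073. The cause was not tested.

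Replicate numbers did not pair the samples: deviations of same-numbered control and cKO libraries correlated at -0.05, -0.06 and 0.14 at day 0, -0.14, -0.09, -0.10 and -0.06 at day 3, and 0.26, 0.08, -0.08 and 0.12 in cartilage, and same-numbered day 0 and day 3 libraries at -0.01 to 0.08 (control) and -0.22 to 0.13 (cKO). With a replicate block the calls were 9 at day 0, 6 at day 3 (Tpi1 at adjusted p = 0.0635) and 1 in cartilage. The blocked day changes were fitted within each genotype and left out library 4 of day 3, which has no day 0 partner. They gave 7 calls for the control and 5 for the cKO day change. In the cKO fit Eno1 (0.046), Eno3 (0.069) and Dnmt1 (0.068) turned positive. There the block and the missing library cannot be told apart. The whole-number cartilage table holds few counts of Aldoc, Pgam1, Gapdh and Pgk1. For the last 3 the estimated counts of the same libraries are far higher, and the reason was not tested.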
